A study of Mus musculus with 24 samples.

Results

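Insulin makes skeletal muscle take up glucose through a chain of proteins that begins at the insulin receptor and ends with the glucose transporter GLUT4. Transcripts of 10 genes of this chain were followed, chosen by gene symbol in the array annotation: Insr, Irs1, Irs2, Grb10, Pik3r1, Pik3ca, Akt1, Akt2, Tbc1d4 and Slc2a4. Each of the 10 had exactly 1 probe set among the 19572 probe sets of the array that carried a single gene symbol. RNA came from the tibialis anterior, a fast muscle of the lower leg, homogenised whole, and was hybridised to Clariom S mouse arrays. The 24 arrays held 6 WT females, 6 Vps39+/- females, 6 WT males and 6 Vps39+/- males, all untreated, on a C57BL/6J background and about 4 months old. Vps39 belongs to the HOPS complex, needed for the fusion of late endosomes or autophagosomes with lysosomes, and Vps39+/- mice carry 1 allele in which an early exon is interrupted by a neomycin-EGFP cassette in every cell of the body. Homozygous embryos die, so heterozygotes, which keep 1 intact allele, were studied. The labels do not give the feeding state at tissue collection.

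Binding of insulin activates the tyrosine kinase of its receptor, which phosphorylates the adaptor proteins IRS1 and IRS2. These recruit PI 3-kinase, a regulatory subunit bound to a catalytic subunit, whose lipid product brings AKT to the membrane to be activated. AKT phosphorylates the Rab GTPase-activating protein TBC1D4, also called AS160, and so releases GLUT4 storage vesicles to move to the surface of the muscle fibre. Much of this control is by phosphorylation and by vesicle movement, neither of which an expression array measures.

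The adaptor genes Irs1 and Irs2 are paralogues with different patterns in these muscles, described below, and their promoter windows are shown for that reason. The windows run from 250 bases before to 50 bases after the transcription start, from RefSeq on the GRCm38.p6 build, both genes lying on the minus strand, at chr1:82291390-82291689 for Irs1 and chr8:11008880-11009179 for Irs2. Capitals mark 2 motifs searched on both strands, the E-box CACGTG and TGTTTTG, the core of the insulin response element bound by FOXO factors. Both windows are printed 5′ to 3′ along the gene.
Irs1: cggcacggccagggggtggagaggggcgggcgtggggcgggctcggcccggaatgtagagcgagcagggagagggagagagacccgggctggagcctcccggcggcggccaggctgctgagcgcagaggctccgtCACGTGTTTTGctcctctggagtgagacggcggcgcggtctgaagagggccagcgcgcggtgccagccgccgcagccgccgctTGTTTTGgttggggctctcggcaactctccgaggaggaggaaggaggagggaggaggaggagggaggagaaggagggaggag
Irs2: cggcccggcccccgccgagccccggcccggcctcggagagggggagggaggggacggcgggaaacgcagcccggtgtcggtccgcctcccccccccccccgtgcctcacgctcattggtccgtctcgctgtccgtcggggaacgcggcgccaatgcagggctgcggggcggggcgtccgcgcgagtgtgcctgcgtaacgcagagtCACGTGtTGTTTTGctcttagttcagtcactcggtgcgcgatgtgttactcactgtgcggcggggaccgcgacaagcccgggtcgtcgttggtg
With the first base after the 250 counted as 0, the E-box of the Irs1 window lay at -115 to -110 and shared 2 bases with the first copy of TGTTTTG, at -111 to -105, and the other copy lay at -32 to -26. In the Irs2 window the E-box lay at -44 to -39 and TGTTTTG at -37 to -31, with 1 base between them. Of 32851 windows of this length, 7.15% held CACGTG, 6.28% held TGTTTTG and 0.408% held both. Of the 10 genes, 8 had a window in the table (14 windows in all), and among these the Irs1 and Irs2 windows alone held either motif. The half-site of the androgen and glucocorticoid receptors, AGAACA, was found in 1 of the 14 windows, that of Tbc1d4, and in 19% of all windows. The estrogen receptor half-site AGGTCA was found in 1 window, of Akt1, and in 16.3% of all windows. The motifs were chosen after the sequences had been seen, and a match of letters shows neither binding nor a cause.

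Values are log2 signals after RMA, a method that subtracts background, gives all arrays the same distribution and summarises the probes of a probe set, so 1 unit is a doubling of signal. Array medians ran from 5.55 to 5.64. The muscle fibre genes Acta1, Ckm and Myh4 were at 13.61 to 13.82, 12.67 to 12.96 and 13.50 to 13.65 on all 24 arrays. The liver transcript Alb ran from 5.38 (WT male 4) to 13.56 (WT female 2), and it was above 12.8 on 4 arrays, WT female 2, WT female 6, Vps39+/- male 2 and Vps39+/- male 3, so results are also given without these 4. Vps39 signal was 7.499 in WT and 7.836 in Vps39+/- mice (permutation p = 0.0862, 12 against 12, unadjusted). The sources used here do not say whether the probes lie in the interrupted exon, and this signal is therefore no check of genotype. In a whole muscle, fewer cells of a type and less RNA per cell cannot be told apart.

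Genotype was compared first, because the study was designed around it. No difference between Vps39+/- and WT muscle passed the test for any of the 10 genes over all mice. In limma, with Benjamini-Hochberg adjustment over all 19572 probe sets, 0 of 10 passed 0.05 (0% of all probe sets), and at an unadjusted p under 0.05 the count was 0 of 10, against 7.34% of all probe sets. The 10 differences ran from -0.17 (Pik3r1) to 0.14 (Tbc1d4), with 5 above and 5 below 0 and a median of 0.000304, beside a median of 0.00795 over all probe sets. The intervals were not equally narrow. For Akt2 the 95% interval of the difference ran from -0.072 to 0.137, whereas for Irs1, whose difference was -0.00823, it ran from -0.55 to 0.533. This fit had no term for sex, so spread between the sexes, large for Irs1 as described below, counts in these intervals.

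Slc2a4, which encodes GLUT4, came closest to a genotype difference. WT females had a signal of 9.251 ± 0.144 and Vps39+/- females one of 9.398 ± 0.0754, while the corresponding males had 9.133 ± 0.0452 and 9.186 ± 0.0678 (mean ± SD, n = 6 each). The 6 WT females measured 9.33, 8.97, 9.23, 9.35, 9.35 and 9.27, and the 6 Vps39+/- females 9.38, 9.30, 9.54, 9.39, 9.39 and 9.39. Thus 5 of 6 Vps39+/- females lay above every WT female, though the groups overlapped. The difference was 0.15 on the log2 scale in females (SE 0.0659, 95% interval 0.0111 to 0.283, exact permutation p = 0.0216, n = 6 against 6), which did not pass in limma (adjusted p = 0.575). It was the 1 member of 10 with an unadjusted p under 0.05 in females, where 8.32% of all probe sets had one and 0% passed after adjustment. WT female 2, which had the highest Alb, was also the lowest female for Slc2a4. Without it the difference was 0.09 (limma adjusted p = 0.817, exact permutation p = 0.0433, n = 6 against 5), an alternative added after the values were seen. Across all alternatives tried, the limma adjusted p of the female difference ran from 0.304 to 0.903. In males the difference was 0.05 (limma adjusted p = 0.899, exact permutation p = 0.134). There 5 of 6 Vps39+/- males lay above every WT male, but narrowly, the lowest of the 5 at 9.189 against 9.188 for the highest WT male. The other one, at 9.06, was among the lowest males.

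Pik3r1, the regulatory subunit p85α of PI 3-kinase, had the largest difference in the other direction. WT females ranged from 8.82 to 9.42 (median 9.17) and Vps39+/- females from 8.32 to 9.06 (median 8.91), with 6 of 6 Vps39+/- females below the mean of WT females. In females the difference amounted to -0.28 (SE 0.136, limma adjusted p = 0.609, exact permutation p = 0.0779) and in males to -0.07 (adjusted p = 0.95). In males, 0 of 10 genes had an unadjusted p under 0.05, against 7% of all probe sets, and 0% of probe sets passed after adjustment. The differences of the 10 genes in males ran from -0.09 (Grb10) to 0.11 (Irs2). Whether the genotype difference itself differed between the sexes was tested as an interaction, and 0 of 10 genes passed adjusted or unadjusted (0% and 7.79% of all probe sets). Slc2a4 had an interaction of 0.09 (95% interval -0.0976 to 0.287, adjusted p = 0.844) and Pik3r1 of -0.21 (95% interval -0.608 to 0.188, adjusted p = 0.835).

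**Figure D1:**
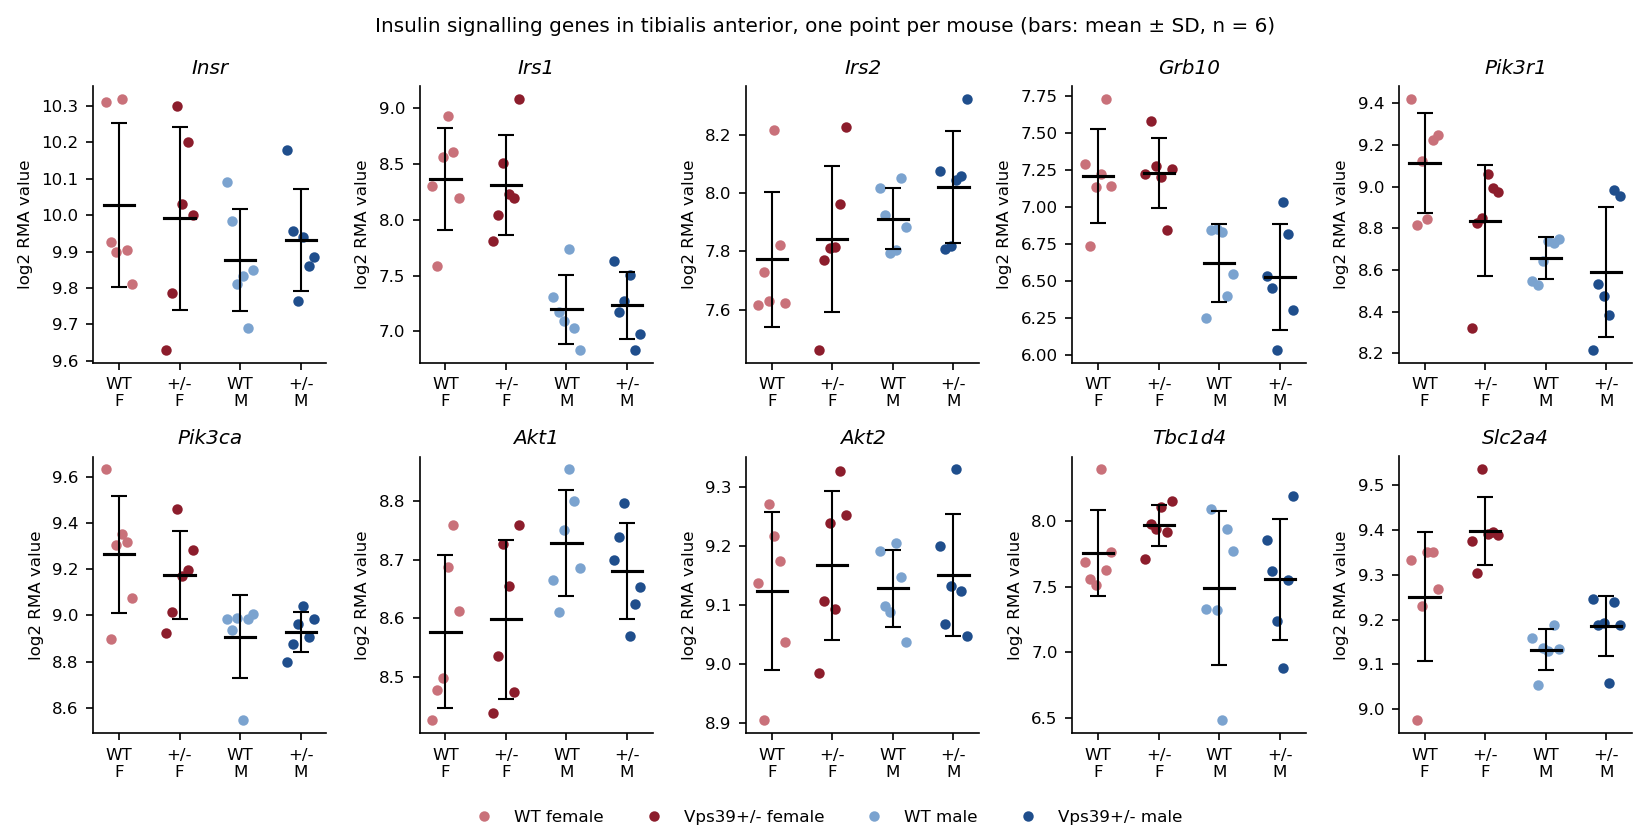
Log2 RMA value of the 10 genes (vertical axes, each with its own range) in the 4 groups of genotype and sex, F for females and M for males, with 1 point per mouse and bars for the mean ± SD of 6 mice. The Irs1 and Grb10 means sit lower in both male groups than in both female groups, though some points of the sexes overlap. WT and Vps39+/- groups of a sex overlap in every panel.

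More of the 10 genes passed for sex than for genotype. Of them, 5 were lower in males and 0 were higher at an adjusted p under 0.05, averaging both genotypes, where 1.39% of all probe sets were lower and 1.98% higher. The 10 genes were chosen with earlier results of these data known, so this contrast with all probe sets is a description and no test. The median difference of the 10 was -0.23, beside 0.00543 over all probe sets. The 5 were the adaptor Irs1, the brake Grb10, both PI 3-kinase subunits Pik3r1 and Pik3ca, and Slc2a4. No gene of the 10 separated all 12 males from all 12 females, as 0.286% of all probe sets did. The running number in the sample titles, whose meaning is not stated, is 1 to 12 in females and 13 to 24 in males, so whatever it stands for cannot be told apart from sex. Within each sex the lower running numbers are all Vps39+/- mice and the higher ones all WT mice. The genotype differences within a sex given above therefore cannot be told apart from it either.

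Irs1, the adaptor best known for coupling the receptor to glucose uptake in muscle, differed most. WT females measured 8.30, 7.58, 8.56, 8.93, 8.61 and 8.20, and Vps39+/- females 7.81, 8.04, 8.51, 8.23, 8.20 and 9.09. WT males measured 7.31, 7.17, 7.09, 7.74, 7.03 and 6.83, and Vps39+/- males 7.63, 7.17, 7.27, 7.501, 6.83 and 6.97. All 12 males lay below the female mean and 10 of 12 below every female, the overlap coming from WT female 2 at 7.58 against Vps39+/- male 1 at 7.63 and WT male 4 at 7.74. The male level was 0.459 of the female level, a log2 difference of -1.12 (SE 0.148, 95% interval -1.43 to -0.819, limma adjusted p = 3.24e-05). It was -1.17 within WT mice (adjusted p = 0.00303) and -1.08 within Vps39+/- mice (adjusted p = 0.00743), where the sexes did not overlap. Ordered by mean, the groups ran from WT females (8.364) and Vps39+/- females (8.313) to Vps39+/- males (7.231) and WT males (7.197). Neighbours of a sex did not differ beyond their spread (exact permutation p = 0.848 and 0.851), and the step between Vps39+/- females and Vps39+/- males did (exact permutation p = 0.00216, the smallest that 6 against 6 allows).

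Irs2, the second adaptor, did not follow its paralogue. Females ranged from 7.46 to 8.23 (median 7.79) and males from 7.796 to 8.32 (median 7.97), so the ranges overlapped widely. The difference was 0.16, with the males higher (SE 0.0821, 95% interval -0.0103 to 0.329, adjusted p = 0.356), and that interval lies wholly above the one for Irs1. Insr, the receptor, ranged from 9.63 to 10.32 in females and from 9.69 to 10.18 in males, with a difference of -0.11 (95% interval -0.272 to 0.058, adjusted p = 0.559).

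Grb10 encodes an adaptor that binds the activated receptor and dampens its signal, and it was lower in males as well. Females ranged from 6.74 to 7.73 (median 7.22) and males from 6.03 to 7.03 (median 6.54). All 12 males lay below the female mean and 7 of 12 below every female. The male level was 0.639 of the female level, a log2 difference of -0.65 (SE 0.116, 95% interval -0.885 to -0.406, limma adjusted p = 0.00151), made up of -0.59 within WT mice (adjusted p = 0.0771) and -0.70 within Vps39+/- mice (adjusted p = 0.0394). The transcripts of an adaptor that passes the signal on and of a protein that holds it back were thus both lower in males.

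The PI 3-kinase subunits differed less. Pik3ca, the catalytic subunit p110α, ranged from 8.90 to 9.64 in females (median 9.24) and from 8.54 to 9.04 in males (median 8.97), a difference of -0.30 (SE 0.0772, limma adjusted p = 0.0285) with 12 of 12 males below the female mean. Pik3r1 ranged from 8.32 to 9.42 in females (median 8.98) and from 8.22 to 8.98 in males (median 8.60), a difference of -0.35 (SE 0.0964, limma adjusted p = 0.0424) with 11 of 12 males below the female mean. Every WT male was below every WT female for Pik3r1, a separation that 1.65% of all probe sets showed in WT mice, but the sexes overlapped among Vps39+/- mice. The calls were close to the threshold. Leaving out any of 19 of the 24 arrays ended the call of Pik3r1, with adjusted p from 0.00982 to 0.0753 over the 24 fits, and leaving out Vps39+/- female 3 or Vps39+/- male 1 did so for Pik3ca (adjusted p = 0.0523 and 0.0503). The Pik3ca call also ended with the number before the point in the sample titles, whose meaning is not stated, as a block (adjusted p = 0.0893).

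The kinase genes showed no called difference. Akt2, the AKT form that serves glucose uptake in muscle, ranged from 8.90 to 9.33 in females and from 9.04 to 9.33 in males. Its sex difference was -0.00603, with a 95% interval from -0.114 to 0.102 that bounds a change in either direction to about 0.1 log2 units. Akt1, the form tied more to growth, was 0.12 higher in males (95% interval 0.0077 to 0.225, adjusted p = 0.275), with 11 of 12 males above the female mean.

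At the end of the chain, Tbc1d4 had the widest spread of the 10 genes in both male groups (SD 0.585 and 0.461), though not in females (SD 0.326 and 0.156). WT males ran from 6.48 to 8.09 and Vps39+/- males from 6.88 to 8.19, against 7.51 to 8.40 in WT females and 7.72 to 8.16 in Vps39+/- females. The sex difference was -0.34 (SE 0.158, 95% interval -0.667 to -0.0136, adjusted p = 0.292), and 5 of 12 males lay below every female. Slc2a4 was lower in males by a small amount, from 9.05 to 9.25 in males (median 9.17) and from 8.97 to 9.54 in females (median 9.35). The difference was -0.17 (SE 0.0466, 95% interval -0.262 to -0.0691, limma adjusted p = 0.0495), and 12 of 12 males lay below the female mean. It was -0.12 within WT mice (adjusted p = 0.431) and -0.21 within Vps39+/- mice (adjusted p = 0.168), and passed in neither alone. Among Vps39+/- mice every male was below every female, as in 1.76% of all probe sets and also for Irs1. This call was at the threshold: it was lost when any of 22 of the 24 arrays was left out (adjusted p from 0.00735 to 0.0887), and it held without WT female 2 (adjusted p = 0.00735) or without Vps39+/- female 2 (adjusted p = 0.0491). It was also lost with the title number as a block (adjusted p = 0.194).

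**Figure D2:**
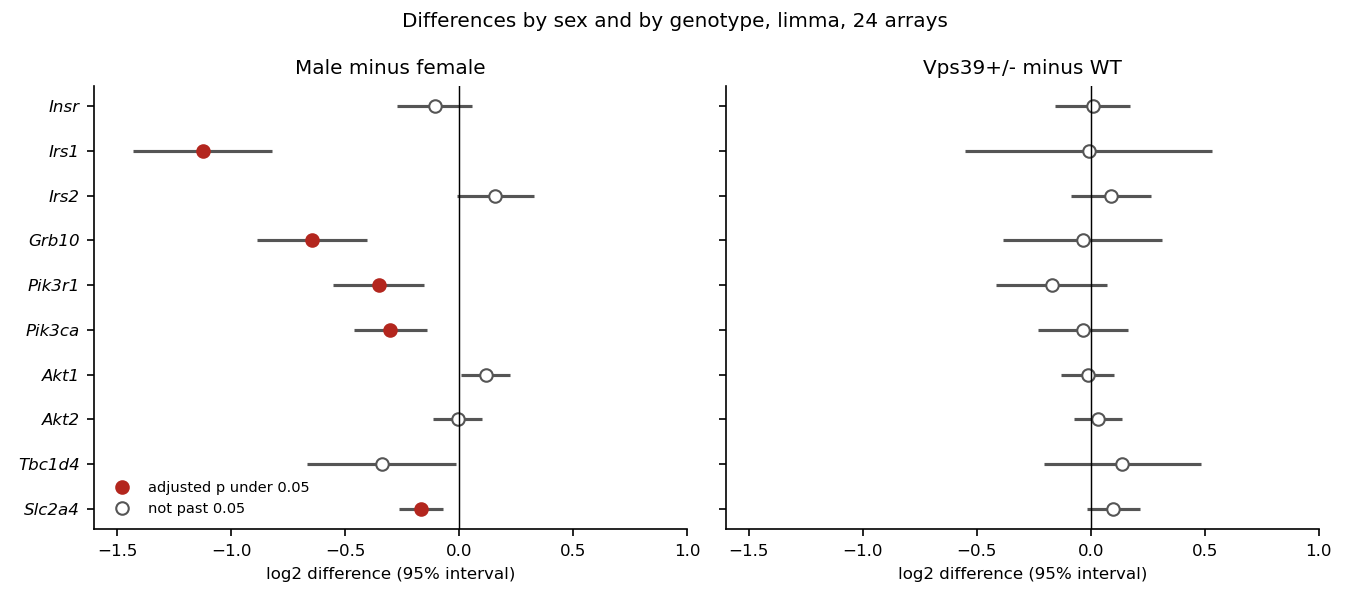
Difference in log2 value (horizontal axis, point) with its 95% interval (line) for each of the 10 genes, male minus female on the left and Vps39+/- minus WT on the right, from limma fits of 24 arrays. Filled points passed an adjusted p of 0.05, which 5 genes did for sex and 0 for genotype.

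Markers of cell types were also compared between the sexes, and few of them passed. All 4 measured macrophage markers of 5 listed had a difference below 0, with C1qa alone passing (-0.42, adjusted p = 0.0427), and their summed signal ran from 7.49 to 8.52 in WT and 7.55 to 7.94 in Vps39+/- females, against 6.88 to 7.71 in WT and 7.27 to 7.88 in Vps39+/- males. Over both genotypes all 12 liver markers had a difference below 0 with 0 passing, but in Vps39+/- mice 9 of 12 were above 0 (median 0.158, against -2.50 in WT mice), their summed signal running from 9.39 to 15.81 in WT females and 9.07 to 12.50 in Vps39+/- females, against 8.94 to 12.28 in WT males and 9.10 to 14.81 in Vps39+/- males. The summed signal of 12 muscle fibre markers lay between 16.77 and 16.84 in all 4 groups, a sum set by the brightest of them. Myh2, the myosin of type IIA fibres, stood at -0.48 in males (adjusted p = 0.138) and ran from 11.4 to 13.18 over the 24 arrays, and it was the 1 fibre marker of 12 with an unadjusted p under 0.05. Their part in the sex differences of the 10 genes was not tested beyond the fits with Alb. With Alb as a covariate, Irs1 and Grb10 still passed, as did Pik3ca, and Pik3r1 and Slc2a4 did not (adjusted p = 0.0626 and 0.0653). Without the 4 arrays of highest Alb, 4 of the 5 passed, Pik3r1 being lost (adjusted p = 0.112). By genotype in females, all 12 liver markers (median -1.24) and all 7 measured adipocyte markers (median -0.342) were below 0. All 5 measured endothelium markers were above 0 there (median 0.268). In males, all 12 liver markers were above 0 (median 1.27), as were 4 of 7 adipocyte and 1 of 5 endothelium markers. None of these passed, and their part in the genotype differences was not tested beyond the fits with Alb.

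The rest of the pathway was read from 6 gene lists, which also hold genes already described above. Beside the list counts for sex that follow, 1.98% of all probe sets were higher and 1.39% lower in males. The lists were chosen with earlier results of these data known, so their counts are a description and no test. For genotype, 0 genes of any list passed over all mice, in females or in males. For sex, the list of receptor, adaptors and their brakes had 19 of 20 genes measured, of which 0 were higher and 2 lower, these being Irs1 and Grb10. Gab1, a docking protein related to the IRS family, stood at 0.26 (adjusted p = 0.0617). Ptpn1, a phosphatase that also dampens the receptor, stood at 0.16 (adjusted p = 0.229). The list's median was -0.03, beside 0.00543 over all probe sets.

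Of 10 measured genes in the list of PI 3-kinase and lipid phosphatases (11 listed), 1 was higher and 2 were lower in males. The 2 lower ones were Pik3ca and Pik3r1, already described among the 10 genes. The higher one was Pik3ip1, a membrane protein that inhibits the p110 catalytic subunit, by 0.70 (SE 0.0724, limma adjusted p = 6.61e-07). The regulatory subunit Pik3r3 stood at 0.16 (adjusted p = 0.424). For AKT and its direct regulators 0 of 11 measured genes (13 listed) passed, with Trib3, a pseudokinase that binds AKT, at -0.26 (adjusted p = 0.0505).

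In the list of GLUT4 vesicle traffic, 23 of 27 genes were measured, 2 were higher and 1, Slc2a4, already described, was lower in males. The higher ones were Rhoq (0.20, adjusted p = 0.0297), which encodes the GTPase TC10, and Rab13 (0.35, adjusted p = 0.0391), a Rab GTPase that TBC1D4 acts on in muscle cells. In the list of glucose handling after uptake, 0 of 15 passed, with Hk2, the hexokinase that traps glucose in the fibre, at 0.19 (adjusted p = 0.0563). In the list of FOXO factors and genes that respond to insulin or fasting, 19 of 20 were measured, 1 was higher and 2 were lower in males. These were Eif4ebp1, a brake on translation that FOXO factors induce (0.39, adjusted p = 0.00234), Sesn1 (-0.58, adjusted p = 0.0159), a stress-induced inhibitor of mTORC1, and Klf15 (-0.40, adjusted p = 0.0494), a glucocorticoid-induced transcription factor. The 6 list medians lay between -0.0371 and 0.0394, near that of all probe sets.

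**Figure D3:**
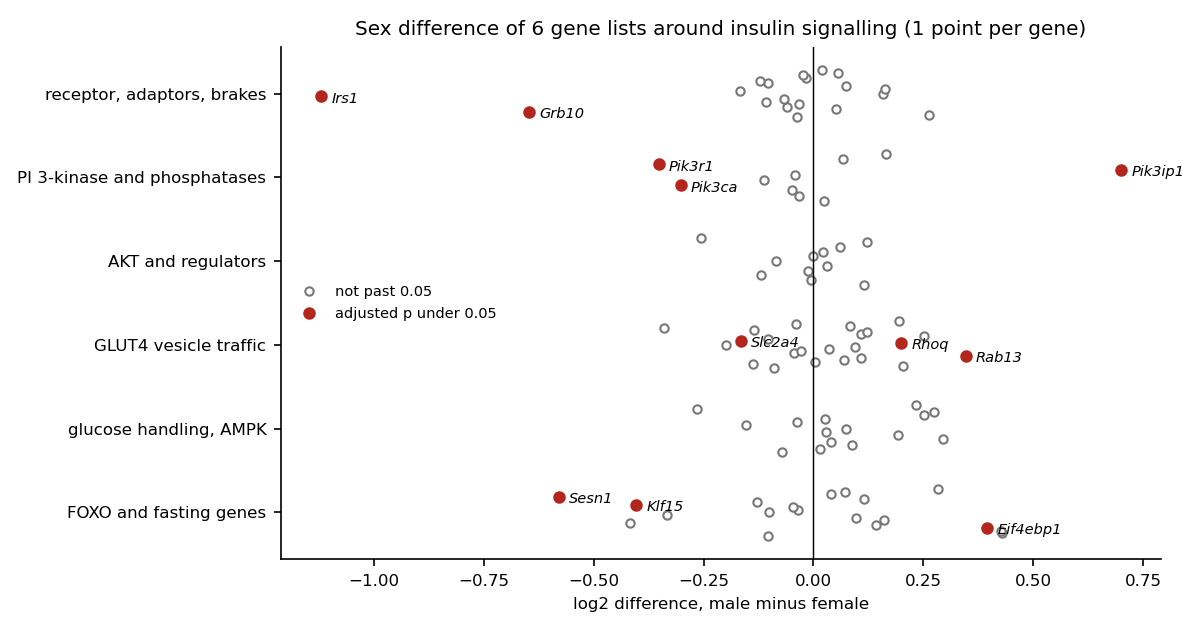
Difference in log2 value, male minus female (horizontal axis), of each measured gene in 6 lists around insulin signalling (rows), with 1 point per gene. Filled and named points passed an adjusted p of 0.05. Irs1 lies furthest to the left at -1.12 and Pik3ip1 furthest to the right at 0.70.

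Because liver RNA was present on some arrays, the 10 genes were also set against Alb within groups. All 10 slopes were below 0 and 0 of 10 passed, where 0.0562% of all probe sets had a negative and 1.62% a positive called slope. The median slope of the 10 was -0.0129, beside -0.00602 over all probe sets. Grb10 had the steepest, -0.0644 log2 units per log2 unit of Alb (SE 0.0197, limma adjusted p = 0.135), and it was the 1 gene of 10 with an unadjusted p under 0.05. The slope was -0.0445 for Irs1 (adjusted p = 0.668) and -0.00645 for Slc2a4 (adjusted p = 0.876), and the latter was 0.00059 without WT female 2.

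**Figure D4:**
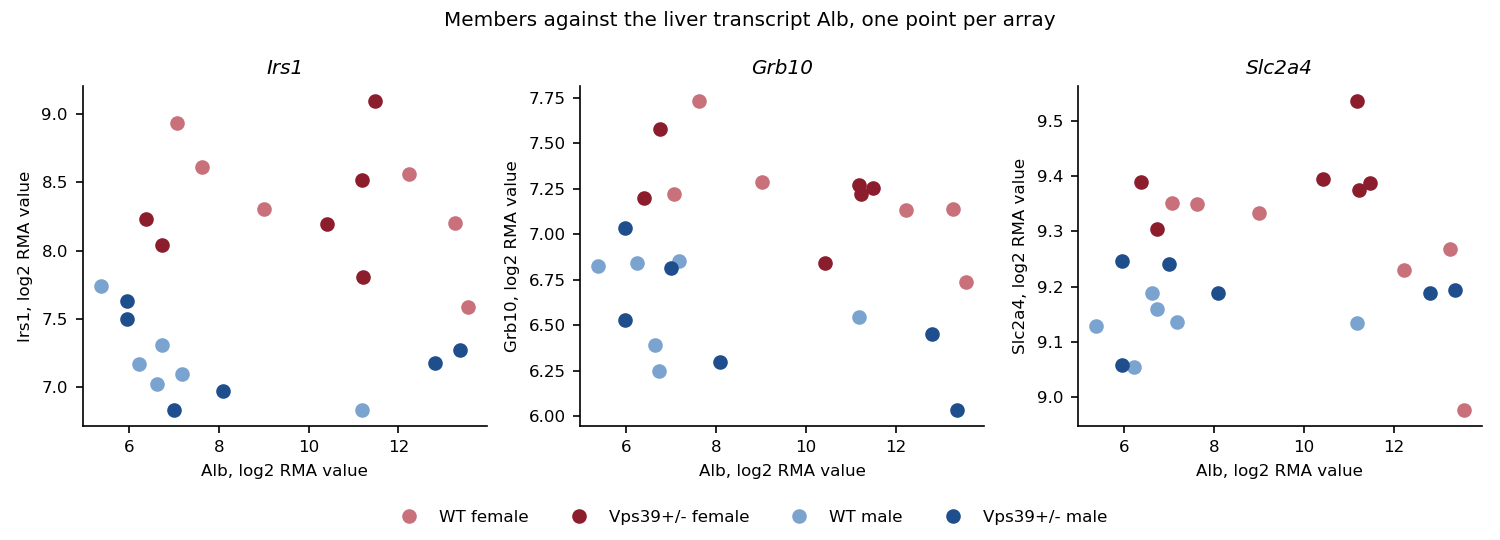
Log2 value of Irs1, Grb10 and Slc2a4 (vertical axes) against that of the liver transcript Alb (horizontal axes), 1 point per array, coloured by group. The male points for Irs1 lie below the female points, with 1 exception. WT female 2, at the far right (7.58), lies below WT male 4 (7.74) and Vps39+/- male 1 (7.63), at the far left.

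Variation between mice of the same group was compared for the 45 pairs of the 10 genes, on deviations from the 4 group means. Of these, 2 pairs passed a within-group permutation test after adjustment over the 45, both with a positive correlation. No share over pairs of other probe sets was computed, so these calls do not set the 10 genes apart. Irs1 and Akt2 varied together (n = 24, Pearson's r = 0.76, permutation adjusted p = 0.00315, Spearman's rho = 0.763, adjusted p = 0.00495), with r = 0.711 without the 2 arrays farthest from the Irs1 median. Without the 4 arrays of highest Alb r was 0.673 and the pair no longer passed (adjusted p = 0.105). After removing the slope on Alb it was 0.731 (adjusted p = 0.0115). Irs2 and Tbc1d4 had r = 0.538 (permutation adjusted p = 0.0463) and rho = 0.543, which did not pass (adjusted p = 0.22). WT female 4 was the highest of its group for both genes, and without it r was 0.429 (adjusted p = 0.285). The pair lost its call in 11 of the 24 fits that left out 1 array.

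**Figure D5:**
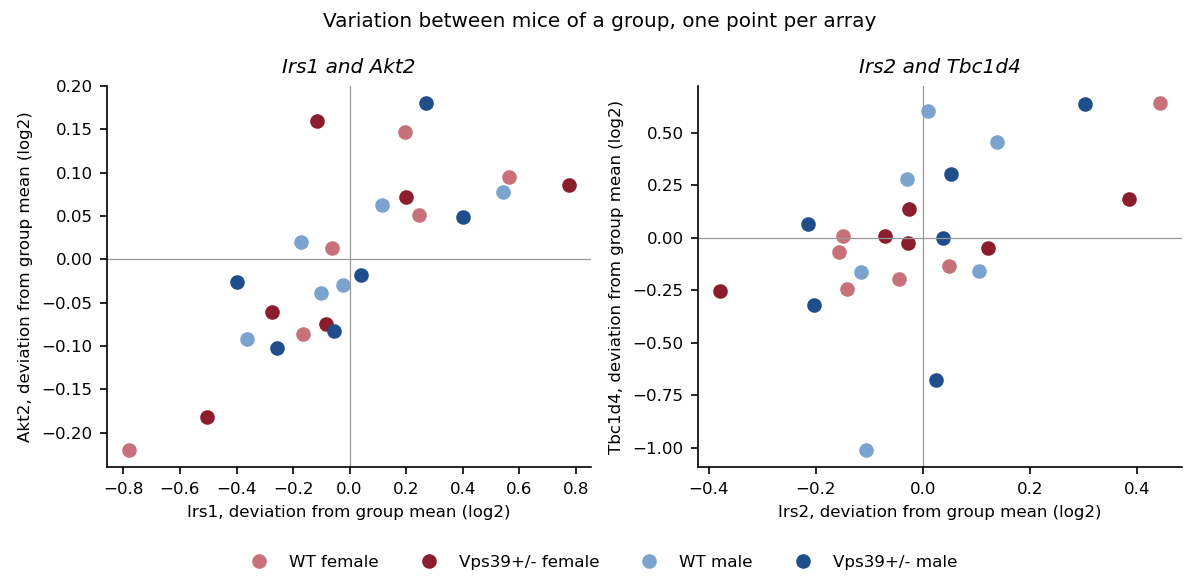
Deviation of each mouse from its group mean, in log2 units, for Irs1 against Akt2 (left) and Irs2 against Tbc1d4 (right), 1 point per array. The points for Irs1 and Akt2 rise together (r = 0.76), and those for Irs2 and Tbc1d4 are more scattered (r = 0.538).

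Among 11779 probe sets with a mean of at least 5, those whose deviations were most like Irs1 were Qrich1, Gpr157 and Dennd4b (Pearson's r = 0.849, 0.829 and 0.828 over 24 arrays). For Irs2 they were S1pr1, Acss1 and Fnip1 (0.793, 0.792 and 0.778), for Insr Phlda3, Tor3a and Six4 (0.838, 0.826 and 0.825), and for Slc2a4 Ube2b, Kif1b and Arhgef6 (0.784, 0.779 and 0.778). These are descriptions over arrays that share a normalization and carry unequal liver RNA. Qrich1, Gpr157 and Dennd4b were each more like Irs1 than Akt2 was (r = 0.76).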

How the data were processed

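Per the labels, RNA was extracted from whole tibialis anterior muscle. The authors processed the arrays with Affymetrix Expression Console 1.4.1.46 and deposited log2 values after RMA. RMA gives all arrays one distribution, which removes any shift common to most genes, and it shrinks differences at the dim end. The sources used here give no genome build for the array annotation. Of 28846 probe sets, 9274 controls or probe sets without a single symbol were left out. All 19572 named probe sets matched a RefSeq table of GRCm38.p6 by Entrez identifier. No column of values was left unused (0).

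Groups came from the labels. Replicate numbers follow accession order and pair no mice. Nothing in the labels but the titles separates the mice, and p-values measure the spread between these samples. Arrays have no read depth, and their number limits the precision. Fits used limma 3.58.1 in R 4.3.3, two-sided, with Benjamini-Hochberg adjustment over 19572 probe sets and a threshold of 0.05. Genotype over all mice had no covariate, as in the unpaired comparison of the methods. The other contrasts came from 4 group means, with Alb added for the slopes. Permutation tests (Python 3.11.15, scipy 1.17.1) were two-sided, exact for 6 against 6 and with 100000 draws otherwise. Fits were tested on simulated data. The methods' t-test, other scalings, a filter at 5, array weights, the title number as a block, the Alb fits and each array left out were alternatives. Genotype over all mice was also fitted with sex as a covariate. Named genes were the 10 members, up to 4 genes of smallest p in each list, cell type markers used as checks and the 3 genes most like Irs1, Irs2, Insr and Slc2a4. The members and lists were chosen with earlier results of these data known. Among the cell type markers, no list but macrophage (1 gene) had a called gene for sex, and none for genotype: adipocyte, endothelium, fibroblast, red blood cell, Schwann cell, brown fat, liver and muscle fibre.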

Additional observations from a re-analysis of the deposited data

Results flagged for a closer look

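In 6 of 40 groups of 6 arrays (10 genes, 4 groups), 1 mouse lay far from the other 5 by Dixon's criterion, which chance meets in about 1 in 20 groups. The share over all probe sets was not computed. The 40 groups also reuse the same 24 arrays, so the count does not set these genes apart. WT female 4 was high for Irs2 (8.22, next 7.82) and for Tbc1d4 (8.40, next 7.77). WT female 2, the array with the highest Alb, was low for Slc2a4 (8.97, next 9.23). Vps39+/- male 4 was low for Slc2a4 (9.06, next 9.19), Vps39+/- female 1 was low for Pik3r1 (8.32, next 8.83), and WT male 4 was low for Pik3ca (8.54, next 8.93).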

How the results depend on the processing

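Irs1 stayed lower in males past the threshold under every alternative tried (adjusted p from 3.49e-06 to 0.00743), and Grb10 under all but WT mice alone (0.0771). Of the 10 genes, 5 differed by sex in the main fit, 2 when each array was shifted to the same median, 3 with the title number as a block (Pik3ca and Slc2a4 lost), 3 with Alb as a covariate, 1 in WT mice alone, 2 in Vps39+/- mice alone (the last 2 added after the data were seen) and 2 to 5 with each array left out in turn. Probe sets called for sex fell from 661 to 259 in WT and 150 in Vps39+/- mice alone. Median shifting changed the split of calls, higher against lower, from 388 and 273 to 396 and 202, and cyclic loess to 364 and 335. The sex difference of Akt2 turned positive under median shifting (0.00627), the title block (0.00469) and in WT mice alone (0.00455), and ran from -0.028 to 0.00997 with 1 array left out.

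For genotype, 0 of the 10 genes passed under any alternative. The methods' t-test called 0 probe sets after adjustment and 1474 unadjusted. Probe sets called over all mice numbered 1 with array weights, 4 with the title block and 0 to 3 with 1 array left out, in females 2 with the title block, and in males 0 to 1 with 1 array left out. Small differences over all mice changed sign: Insr to -0.00728 under median shifting, Irs1 to 0.0278 with array weights, and with the title block Irs1 to 0.18, Grb10 to 0.0248 and Pik3ca to 0.0202. Without the 4 arrays of highest Alb, Irs1 was at 0.124 and Grb10 at 0.096. With 1 array left out, Insr ran from -0.0219 to 0.0426, Irs1 from -0.128 to 0.0962, Grb10 from -0.0993 to 0.0411, Pik3ca from -0.0836 to 0.0157, Akt1 from -0.0337 to 0.00523, and Pik3r1 in males from -0.144 to 0.00907.

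Slopes on Alb were called for 328 probe sets, for 180 among those with a mean of 5 or more, for 125 without the 4 arrays of highest Alb and for 583 with 11 other liver markers in its place. The slope of Slc2a4 became 0.00303 under cyclic loess, 0.00261 without those 4 arrays and 0.000383 without the 2 arrays farthest from the median Alb (added later), and ran from -0.0102 to 0.00059 with 1 array left out. Correlated pairs called were 2, 1 without the 4 arrays and 1 to 3 with 1 array left out. The causes were not tested. A second probe set per gene could not be tried, since each gene had 1. Among females, title number 1 held both genotypes, 6 and 7 only WT mice, and 2 and 4 only Vps39+/- mice. Among WT mice, title number 1 held both sexes, 6 and 7 only females, and 2 and 4 only males. The sex differences in WT mice alone carry that imbalance. Replicate numbers follow accession order and were not used to pair mice.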
